A study of Triticum aestivum with 8 samples.

Results

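Among the transcripts that were already abundant in unchilled wheat crowns, 150 probe sets carried signals that were raised much further after cold acclimation. The crown is the stem base from which winter wheat regrows, and its survival decides whether the plant outlives a freeze. During cold acclimation, weeks of low but non-freezing temperature, crown cells change their transcripts widely. The best known genes of the response are the Cbf transcription factors and their Cor/Lea targets, many of which encode proteins that protect cells from drying and freezing. Genes of these families and vernalization genes shown in the study were left out of the choice made here where they could be matched. Matching the 41 genes shown gave 28 gene symbols. Crowns came from hexaploid winter wheat, Triticum aestivum, of a freeze-resistant line, SD16029 (FR), and a freeze-susceptible line, SD16169 (FS). Both lines arose from azide mutagenesis of the cultivar Winoka, so that all plants share that background and no plants of Winoka itself were among the arrays. Non-treated plants (NT, labelled Ctrl) were harvested from a greenhouse kept at 22 to 28°C with a 14 h photoperiod, at about the fourth leaf stage, and cold-acclimated plants (CA) were moved from there to 4°C for 4 weeks, so that CA plants were also older at harvest. Each of the 4 groups (FR NT, FS NT, FR CA and FS CA) had 2 Affymetrix wheat arrays. The arrays of a group are technical replicates of RNA from pooled plants, so p-values measure the spread between arrays only and not that between plants, and each line is a single mutant line. No list of crown-defining genes was tested here. In RNA from whole crowns, a change in the cell types present and a change in RNA per cell cannot be told apart.

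The members were chosen from their signals. Control probe sets, the genes shown in the study's heat maps of vernalization, Cbf and Cor/Lea genes, and those with the symbols rab, LEA, Em or EM were left out. Of the 61071 probe sets that remained, 10773 had a log2 signal of at least 9 on all 4 NT arrays and are called abundant. For each of them the gap was taken, which is the lowest of the 4 CA values minus the highest of the 4 NT values, and the 150 largest gaps are the members. The cold change of the members is therefore given as a description, with no test. A gap above 0, with CA wholly above NT, was found in 34.8% of the abundant probe sets and in 20.0% of the 61071, while CA lay wholly below NT in 47.4% of the abundant probe sets. The last member, Ta.6824.1.S1_at, had a gap of 2.33, and the next before it were Ta.26928.1.S1_a_at (2.34) and Ta.18669.2.S1_x_at (2.34). Just outside were Ta.4834.1.S1_at with a gap of 2.33, Ta.425.1.S1_s_at with 2.33 and Ta.9536.1.S1_at with 2.32, so that the limit fell within a continuous series of values.

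The members moved from the upper part of the signal range to its top. The median member lay at 10.07 and 10.08 on the FR NT arrays and at 10.08 and 10.15 on the FS NT arrays. On the CA arrays the median was 13.14 and 13.12 in FR, and 13.21 and 13.27 in FS. Ranked among all tested probe sets of an array, the median member stood at percentile 87.3 to 87.6 in NT and 97.6 to 97.8 in CA. No member was among the 1000 brightest probe sets of any NT array, whereas 55 to 64 of them were on each CA array, and 8 or 9 were among the 100 brightest. The members are 0.245% of the tested probe sets, and they held 0.417 to 0.474% of the summed linear signal in NT and 4.25 to 4.34% in CA. On the CA arrays 3 to 5 members came within 1 log2 unit of the brightest probe set.

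**Figure D1:**
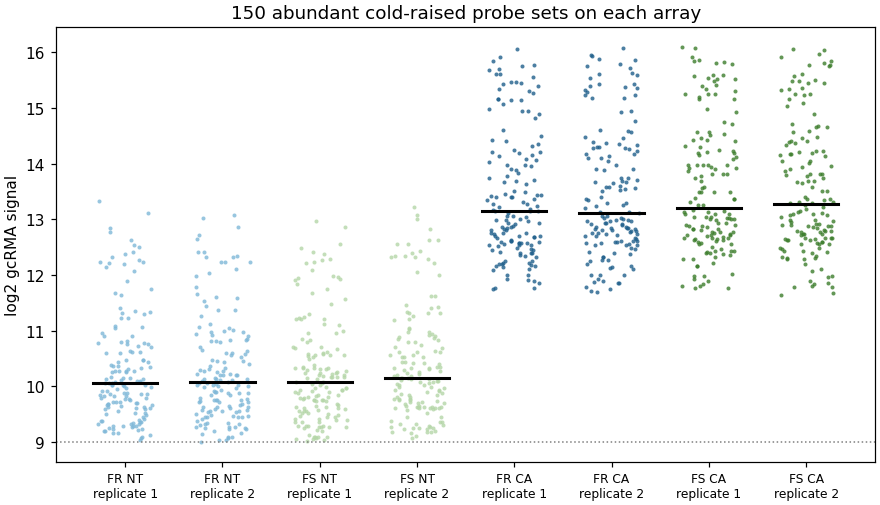
Log2 gcRMA signal of the 150 members (points) on each of the 8 arrays, with the median as a bar and the lower limit of the choice, 9, as a dotted line. Medians lie between 10.07 and 10.15 on the NT arrays and between 13.12 and 13.27 on the CA arrays.

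The mean cold change of a member ran from 2.41 to 5.93 in FR, with a median of 2.92 (5.31-, 61.1- and 7.55-fold). In FS the change ran from 5.36- to 63.9-fold, with a median of 3.01 on the log2 scale (8.03-fold). Over all abundant probe sets the medians were −0.21 in FR and −0.20 in FS. Most gaps were near the limit: 113 members had a gap of 2 to 3, 28 of 3 to 4, 7 of 4 to 5 and 2 above 5. Low NT levels were more frequent among the members than among the abundant probe sets, with 55.3% against 31.6% having a lowest NT value under 10, and 7.33% against 25.1% having one of at least 12. No member had a lowest NT value of 13 or more, although 1411 abundant probe sets did, and the largest gap among those was 2.09. The brightest probe set of a CA array read 16.71 to 16.89, which limits the gap that bright probe sets can reach. The part of this limit was not tested. Within the members, Pearson r between the lowest NT value and the gap was −0.085 (n = 150). Both quantities were limited by the choice itself, so this r does not show how the starting level relates to the cold change. Members that share a cluster are also not independent of each other.

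**Figure D2:**
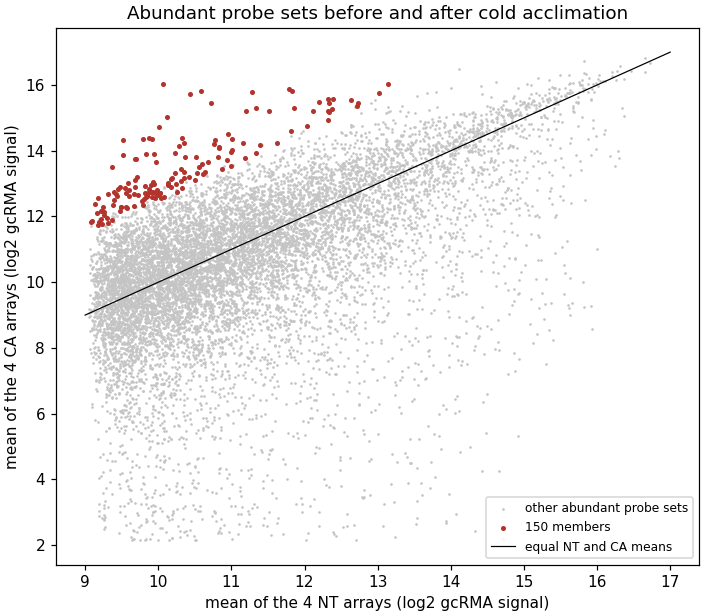
Mean log2 gcRMA signal over the 4 CA arrays against that over the 4 NT arrays for the 10773 abundant probe sets, with the 150 members in red and the line of equal means. The members form the upper edge of the cloud, and none has a lowest NT value of 13 or more.

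The member with the largest gap was Ta.28394.1.S1_s_at. It read 10.48 and 9.63 in FR NT, 9.52 and 10.62 in FS NT, 15.91 and 16.06 in FR CA, and 16.10 and 16.04 in FS CA. Its change, 61.1-fold in FR and 63.9-fold in FS, was the largest of the 150 in both lines, although its NT arrays differed by about 1 log2 unit within each line. The next, Ta.25026.1.S1_at, read 10.34 and 10.45 in FR NT, 10.59 and 10.35 in FS NT, 15.68 and 15.63 in FR CA, and 15.81 and 15.83 in FS CA. Unlike Ta.28394.1.S1_s_at, it varied little within either treatment. Ta.14301.1.S1_at read 10.60, 10.82, 10.60 and 10.84 on the NT arrays (FR then FS), and 15.31, 15.43, 15.56 and 15.45 on the CA arrays. Ta.28378.2.S1_at was brighter at the start, with 11.22, 11.38, 11.21 and 11.32 in NT and 15.60, 15.76, 15.85 and 15.96 in CA. The remaining members of the 10 largest gaps were TaAffx.132296.1.A1_x_at (gap 4.36), Ta.28394.3.S1_x_at (4.35), Ta.6322.1.S1_x_at (4.11), Ta.8450.2.S1_a_at (4.02), Ta.6322.2.S1_a_at (4.02) and Ta.28623.1.S1_x_at (3.99). In all, 14 members changed by more than 4 in both lines, and 21 had all 4 CA arrays above 15.

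At the other end of the choice were the members that were brightest in the warm. Ta.6148.1.S1_a_at read 13.32 and 13.07 in FR NT, 12.97 and 13.23 in FS NT, 16.05 and 15.95 in FR CA, and 16.07 and 16.05 in FS CA. Ta.14281.1.S1_at, annotated as LOC542796, read 13.12, 13.02, 12.87 and 13.07 in NT and 15.75, 15.78, 15.78 and 15.77 in CA. Its CA values all lay within 15.75 to 15.78. TaAffx.73475.1.S1_s_at, Ta.28319.1.S1_at and Ta.3573.3.S1_a_at had lowest NT values of 12.55, 12.49 and 12.38, and gaps of 2.39, 2.72 and 2.36.

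Few members had a gene name. A single gene symbol was given for 7 of the 150 (4.67%, against 5.39% of the abundant probe sets), all of them numbered LOC symbols for which the annotation used here states no function. Of the 581 abundant probe sets with a symbol, 188 (32.4%) had a gap above 0, close to the 34.8% of all abundant probe sets. LOC778392 was read by 2 members, Ta.351.1.S1_at and Ta.351.2.S1_x_at. Ta.351.1.S1_at read 9.33, 9.51, 9.29 and 9.66 in NT and 12.70, 12.84, 12.94 and 12.91 in CA. Ta.351.2.S1_x_at was brighter, at 10.76, 10.93, 10.67 and 10.94 in NT and 13.95, 14.13, 14.18 and 14.22 in CA, and its change (3.20 in FR, 3.40 in FS) was close to that of its partner (3.34 and 3.45). Another probe set of the same symbol, Ta.351.3.S1_at, was at the lowest value of the table on every array. LOC606323 (Ta.2690.1.S1_at) read 12.20, 12.03, 11.92 and 12.34 in NT and 15.15 to 15.28 in CA. LOC542781 (Ta.27725.1.S1_at) read 12.14, 12.41, 12.41 and 12.32 in NT and 15.07, 15.18, 15.31 and 15.25 in CA. These, with LOC542796, were the named members with the highest signals in the cold. LOC780628 (Ta.5414.1.S1_at) changed by 2.71 in FR and 2.73 in FS, and LOC778400 (Ta.26928.1.S1_a_at) by 2.60 and 2.50. Probe sets of the same symbols outside the members differed in size. Ta.5414.3.S1_s_at (LOC780628) changed by 2.37 in FR and 2.45 in FS, and Ta.26928.1.S1_x_at (LOC778400) by 3.68 and 3.57.

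Genes were grouped by function in 13 lists (translation, sugar metabolism, redox, protein folding, chromatin, photosynthesis and others). Through the symbols, other names and descriptions of annotated genes they matched 105 probe sets, of which 60, from 11 of the lists, were abundant. None of the 60 was a member, and since the members are 1.39% of the abundant probe sets, so few probe sets say little about the function of the members. Of the 60, 3 had a gap above 0, against 34.8% of the abundant probe sets. The largest, 0.81, in the translation list, was well short of the members. CA lay wholly below NT for 18 of 19 abundant chromatin probe sets and 12 of 13 of the cytoskeleton and cell wall. The same held for 4 of 4 in redox, 5 of 6 in photosynthesis, 2 of 2 each in sugar metabolism and the methyl cycle, and 1 of 1 in defence and lipid transfer. It held for 1 of 2 in protein folding, 2 of 7 in translation, 0 of 3 in transport and 0 of 1 in ubiquitin and protein turnover. The share was 47.4% of the abundant probe sets. Several probe sets of a list read the same gene, so these counts are not of independent genes.

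The number in a probe set's name is that of the sequence cluster it was designed from, and the members came from 126 clusters. Of these, 18 held more than 1 member (42 members in all), and 5 held 3 or more. Such members can read the same transcripts and are not independent. The suffix a_at marks probes shared by transcripts of 1 gene, s_at probes shared by several transcripts, and x_at probes that may cross-hybridize. Such suffixes were borne by 20, 15 and 30 of the members, and by 1662, 897 and 2338 of the abundant probe sets. All 4 probe sets of Ta.28394 were members, and their CA signals lay within 15.69 to 16.10 while their NT signals lay between 9.52 and 12.29. The CA signals were within about 1 log2 unit of the brightest probe set of each array, and levels of different probe sets are not comparable. The 3 probe sets of Ta.6126 were all members, with gaps of 3.05, 3.28 and 3.84. Ta.30790 had gaps of 2.56, 2.74 and 3.46, and its probe set outside the members, Ta.30790.3.S1_x_at, rose from 6.95 to 7.80 in NT to 10.43 to 11.43 in CA. Ta.920 had gaps of 2.79, 2.97 and 3.56, and its further probe set, Ta.920.1.S1_x_at, had a gap of 1.96 from NT values of 13.38 to 13.62. Ta.6148 had gaps of 2.50, 2.62 and 2.63 at NT levels that spanned 10.84 to 13.32.

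**Figure D3:**
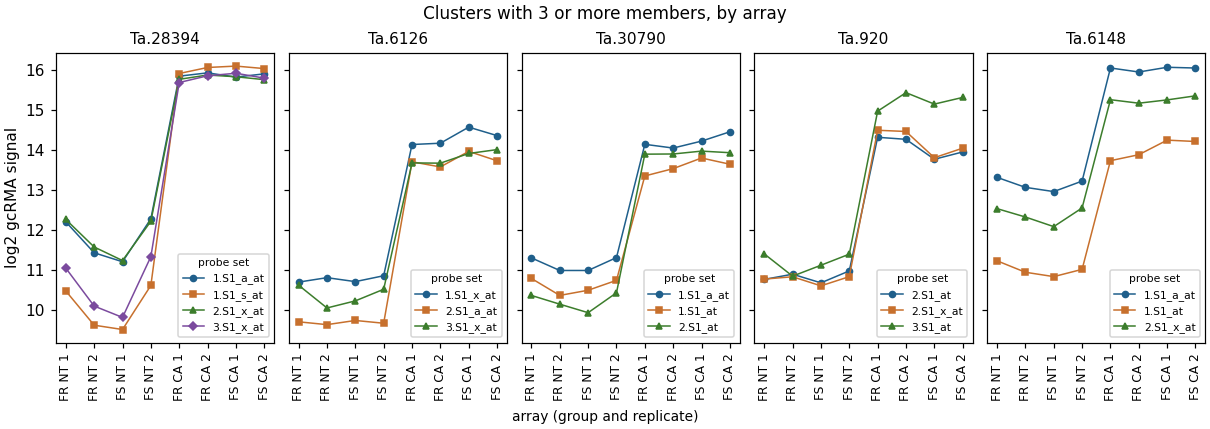
Log2 gcRMA signal on each array for the members of the 5 clusters with 3 or more members, a line for each probe set. In Ta.28394 the NT signals differ between arrays and between probe sets, and the CA signals lie within 15.69 to 16.10.

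Other probe sets of the members' clusters were not chosen, since each fell short of the limit on abundance or gap. They can read the same transcripts as the members on the same arrays, so their cold change is not independent of the choice. There were 223 of them in 61 clusters. Of these, 112 bore the number TaAffx.128418, and since the 6 annotated probe sets of that number carry 5 gene symbols, it was left out, a step taken after its values were seen. Of the 111 others, 88 (79.3%) had a gap above 0, against 20.0% of all 61071 probe sets, and none lay wholly lower. Their median changes were 2.32 in FR and 2.43 in FS. For 58 of the 111 the lowest NT value was under 9 and the mean over the arrays above 5. Of these 58, 56 (96.6%) had a gap above 0, against 46.0% of all 14258 probe sets within the same limits. The mean includes the CA arrays, so this limit lets in dim probe sets that were high in CA and raises both shares. Without the limit on the mean, 72 of the 93 with a lowest NT value under 9 (77.4%) had a gap above 0. With TaAffx.128418 included, 113 of 223 (50.7%) had a gap above 0 and 12 lay wholly lower. The widest were TaAffx.131520.1.S1_x_at, at 2.48 to 2.56 in NT and 9.11 to 10.61 in CA, and Ta.14301.1.S1_s_at, at 7.24 to 7.73 in NT and 13.89 to 14.19 in CA. For Ta.14301 the partner probe set was a member with a smaller gap, 4.46, at a higher NT level. In all 34 of the 111 had gaps at least as large as the last member's and fell short of the NT limit. All 34 were among the 58, and 1046 of the 14258 had gaps of that size.

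The members' arrays were less alike in NT than in CA. The median difference between the 2 arrays of a group was 0.17 in FR NT and 0.23 in FS NT, against 0.10 in FR CA and 0.08 in FS CA. For the abundant probe sets the same medians were 0.16, 0.15, 0.15 and 0.10. A difference of at least 0.5 was seen for 19 members in FR NT, 16 in FS NT, 4 in FR CA and 0 in FS CA. The range over 4 arrays was wider in NT than in CA for 90 members (60.0%), and for 39.9% of the abundant probe sets. The sets were not matched for signal level. Array medians were 10.07 to 10.15 in NT and 13.12 to 13.27 in CA for the members. For the abundant probe sets they were 10.80 to 10.90 and 10.65 to 10.71. The part of signal level was not tested. The choice favours members whose arrays lie close together, in NT as in CA.

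The NT differences ran in opposite ways in the lines for 93 members and in the same way for 57. In 62 members (41.3%, against 39.6% of the abundant probe sets) replicate 1 was above replicate 2 in FR and below it in FS, and in 31 (20.7%, against 20.2%) the reverse held. Replicate 2 was above in both lines in 43 (28.7%, against 2271 of the 10773 abundant probe sets) and replicate 1 in 14 (9.33%, against 18.7%). Differences of at least 0.5 in both lines were found for 10 members, 7 of them of the first kind (4.67%, against 0.965% of the abundant probe sets), 2 of the reverse (1.33%, against 1.24%) and 1 with replicate 1 above in both (0.667%, against 1.2%). With 1 member per cluster, 3 of 126 (2.38%) were of the first kind. The correlation of the 2 differences across members was −0.565 (n = 150), −0.459 with 1 member per cluster (n = 126) and −0.212 across the abundant probe sets. The points share arrays and clusters, and the values are descriptive. All 4 members of Ta.28394 were among the 7, with Ta.6322.2.S1_a_at, Ta.28623.1.S1_x_at and TaAffx.131520.1.S1_s_at. Ta.28394.3.S1_x_at had the widest, with 11.05 and 10.11 in FR NT and 9.82 and 11.34 in FS NT, against 15.69 and 15.86 in FR CA and 15.92 and 15.80 in FS CA. Ta.6322.2.S1_a_at read 10.31 and 9.55 in FR NT, 9.62 and 10.56 in FS NT, and 14.59 to 14.95 in CA. Ta.8450.2.S1_a_at ran the other way, with 9.73 and 10.26 in FR NT and 10.13 and 9.37 in FS NT, as did Ta.8571.2.S1_x_at, with 9.36 and 10.13 in FR NT and 9.94 and 9.28 in FS NT. TaAffx.128418.29.S1_s_at, the member with replicate 1 above in both lines, read 11.74 and 10.98 in FR NT and 11.85 and 10.80 in FS NT, and also differed in FR CA, at 15.56 and 14.94.

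**Figure D4:**
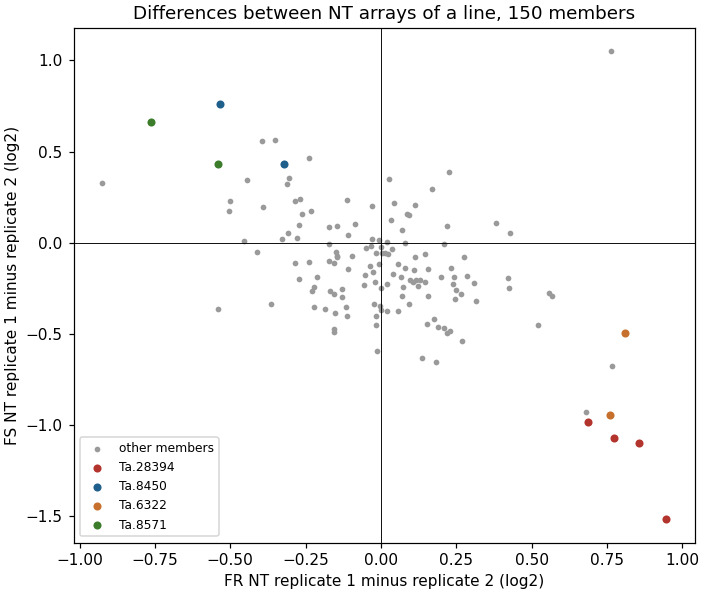
Difference between the 2 NT arrays in FS against that in FR for each of the 150 members (log2, replicate 1 minus replicate 2), with 4 clusters coloured. Ta.28394 and Ta.6322 lie at the lower right and Ta.8450 and Ta.8571 at the upper left.

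Control transcripts differed between arrays as well. The control transcript Sucsyn, read at its 3′ and 5′ ends, gave a 3′ minus 5′ difference of 5.24 to 5.55 on replicate 1 of all 4 groups and 6.38 to 7.48 on replicate 2, and spanned 5.24 to 7.04 in NT and 5.37 to 7.48 in CA. TaAffx.128418.29.S1_s_at ran opposite to this difference, with replicate 1 above replicate 2 in all 4 groups. The other members with NT differences of at least 0.5 in both lines ran in opposite ways in the lines. The part of this control's difference in the result was not tested. The 18S rRNA control read 4.58 to 5.51 in NT and 5.90 to 7.94 in CA, and the mean of the 42 poly-A spike-in probe sets was 0.60 higher in CA than in NT in both lines, while the array median changed by −0.07. Relative to the spike-ins, the cold change of the members was at least 1.81 in FR and 1.82 in FS, with medians of 2.31 and 2.40. Members were chosen with gaps of at least 2.33, wider than the shift of 0.60. That all 150 stayed higher in CA therefore followed from the choice. Of 7 abundant wheat control probe sets (G-6-PDH, Sucsyn and ubiquitin), 5 had a gap above 0, the largest 0.79, and none approached the members.

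The direction of a difference between the lines was not used in the choice, but its size was in part: the gap is taken over the arrays of both lines, so that a difference between FR and FS in either treatment narrows it. The choice thus disfavours members that differ between the lines, and the counts below do not show that the lines were alike. By limma with Benjamini-Hochberg adjustment over all 61115 probe sets, none of the 150 members was called between FR and FS in NT, where 0.0213% of all probe sets were called, or in CA, where 0.373% were, or in the difference in cold response, where 0.108% were. At an unadjusted p under 0.05 there were 1, 22 and 10 members (0.667%, 14.7% and 6.67%), against 1.22%, 17.8% and 9.01% of the abundant probe sets and 1.43%, 7.64% and 4.47% of all. The lowest adjusted p of a member was 1.0 in NT, 0.0628 in CA and 0.326 in the difference in response. The typical 95% interval of a line difference reached 0.33 to either side, and that of a difference in response 0.46, although it was narrower for members whose arrays lay close together. All line differences lay within −0.36 to 0.33 in NT and −0.62 to 0.55 in CA, beside cold changes of at least 2.41.

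Small differences between the lines leaned towards FS in CA, and the lean depended on the scaling. The median FR minus FS difference was −0.01 in NT and −0.08 in CA, and 117 of the 150 (78.0%) were below 0 in CA, against 58.2% of the abundant probe sets. The share was 50.7% with the arrays centred on their medians, 56.7% after quantile normalization and 84.7% with the arrays centred on the spike-ins. For the abundant probe sets it was 42.1%, 46.2% and 65.5% under the same scalings. The NT median turned to 0.03 under each of the first pair of scalings. Both FS CA arrays were above both FR CA arrays for 71 members (47.3%), which is 31.2% in the abundant probe sets, and the reverse held for 16 (10.7%, against 21.9%). In NT the counts were 12 (8.0%, against 13.6%) and 9 (6.0%, against 2.54%). The cold change was larger in FS for 104 members (69.3%, against 50.3% of the abundant probe sets) and in FR for 46. With median centring it was larger in FS for 93 members (62.0%, against 42.0% of the abundant probe sets). After quantile normalization it was larger in FS for 97 (64.7%, against 46.7%). The median difference in response, −0.08, stayed below 0 under all 3 other scalings (−0.04 to −0.08).

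The widest line differences are given as values, since none passed the test. Ta.6023.1.S1_at read 13.16 and 13.14 in FR CA and 13.86 and 13.68 in FS CA, so that FS was higher without overlap. Its FR minus FS difference was −0.62 in CA (95% interval −0.98 to −0.27, limma adjusted p = 0.301) and −0.29 in NT (−0.64 to 0.07). Ta.28695.3.S1_at read 13.46 and 13.60 in FR CA and 14.15 and 14.05 in FS CA, a difference of −0.57 (limma adjusted p = 0.571). Ta.920.2.S1_x_at ran the other way, at 14.50 and 14.47 in FR CA and 13.81 and 14.05 in FS CA, a difference of 0.55 (0.26 to 0.85, limma adjusted p = 0.268). Its neighbour in the cluster, Ta.920.2.S1_at, read 14.32 and 14.27 in FR CA and 13.77 and 13.96 in FS CA, while Ta.920.3.S1_at read 14.97 and 15.44 in FR CA and 15.15 and 15.32 in FS CA, where the lines overlapped. Ta.9392.1.S1_x_at had the lowest adjusted p in CA, 0.0628 by limma, from 12.16 and 12.14 in FR and 12.39 and 12.43 in FS.

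In NT the widest were Ta.2278.1.S1_x_at at −0.36 (95% interval −1.20 to 0.48) and Ta.19483.1.S1_at at 0.33 (0.01 to 0.64), both with a limma adjusted p of 1.0. Each depended on single arrays, the former being −0.15 without FR NT replicate 2 and −0.58 without FR NT replicate 1, and the latter 0.20 without FR NT replicate 1. The NT difference of Ta.6023.1.S1_at was likewise −0.14 without FR NT replicate 1 and −0.17 without FS NT replicate 1. Ta.19483.1.S1_at read 9.60 and 9.35 in FR NT, 9.05 and 9.24 in FS NT, 12.42 and 12.47 in FR CA, and 13.01 and 12.84 in FS CA. The lines thus stood in opposite order in NT and CA without overlap, and the difference in response, −0.81 (−1.25 to −0.36, limma adjusted p = 0.494), was the widest of the 150. It was followed by Ta.28695.3.S1_at at −0.61, which was −0.39 without FR NT replicate 2, and Ta.6148.1.S1_at at −0.58, neither of which passed the test.

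**Figure D5:**
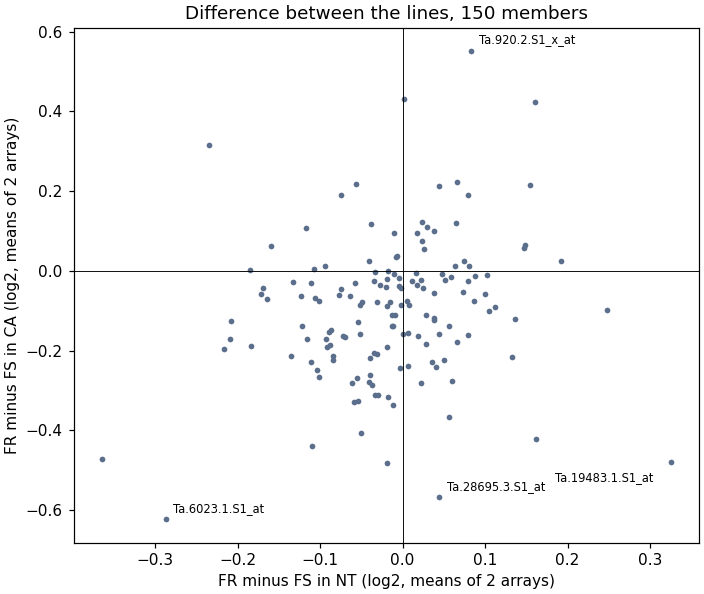
FR minus FS difference in CA against that in NT for each member (log2, means of 2 arrays). Points lie within −0.36 to 0.33 in NT and −0.62 to 0.55 in CA, 117 of 150 below 0 in CA, and none was called by limma.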

How the data were processed

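Crown RNA of 4 groups was hybridized to 8 arrays. Each array held RNA of 3 pooled replicates. The authors used gcRMA, which corrects for background from probe sequence and normalizes between arrays, and deposited the resulting log2 signal of 61290 probe sets. Dim probe sets share a floor, and differences near it are compressed. Leaving out 175 controls left 61115. The members and gene lists were chosen with earlier results of these data known. Matching the 41 genes of the study's heat maps gave 28 gene symbols, read by 35 probe sets. These and 9 probe sets of rab, LEA, Em or EM were left out, and 2 of all those left out would have been members. Heat map genes without a match, 13 if each symbol stands for 1 gene, could not be left out. Group means were fitted in R 4.3.3 with limma 3.58.1 (variance moderated with an intensity trend, no filter, 4 residual and 0.623 prior degrees of freedom), and Benjamini-Hochberg adjusted p under 0.05 was called. The fit was tested on simulated data. Named probe sets are those with a symbol, the 10 largest gaps, the 5 highest in NT, the widest line differences, clusters of 3 or more members and those at the limit. Other probe sets of the clusters, and those with wide NT differences, were chosen after their values were seen. Alternatives were scaling, the limits of the choice, the ranking, a replicate block and leaving out arrays. Precision is limited by having 2 arrays in a group. Symbols came from the platform annotation, with no sequences used here. Figures were drawn with matplotlib 3.10.9 in Python 3.11.15.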

Additional observations from a re-analysis of the deposited data

How the results depend on the processing

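The cold change of the members kept its direction under every alternative run, which the choice of wide gaps fixed in advance. The widest line differences (9 values of 6 probe sets) kept theirs too. They were picked as the widest in the main fit, and those of other members were not rerun, so this is a description only. The median line difference in NT changed sign with 2 of the scalings, from −0.01 to 0.03. The median cold change of the members, 2.92 in FR and 3.01 in FS, was 3.10 and 3.15 with the arrays centred on the median above the floor, 2.31 and 2.40 with the poly-A spike-ins, 3.40 and 3.59 with a lowest NT value of at least 8, 2.50 and 2.51 with at least 10, 3.16 and 3.22 for the 100 largest gaps, and 2.78 and 2.83 for the 200 largest. Leaving out an array moved it between 2.89 and 2.96 in FR and between 2.94 and 3.11 in FS, with 141 to 149 of the 150 members kept. The list shared 73 members with the choice at 8, 67 at 10, 137 after median centring, 116 after spike-in centring, 143 after quantile normalization and 136 when ranked by the difference of means. The count of members called between the lines was 0 in NT and 0 in CA, and ranged from 0 to 1 when arrays were left out: 1 in NT without FS NT replicate 2, and 1 in CA without FR CA replicate 2. It stayed at 0 for the difference in response. With the replicate number as a block it was 0 in all 3 comparisons. Deviations of same-numbered arrays correlated at 0.081 between FR NT and FS NT and up to 0.362 between other groups, and the labels do not tie the numbers to a shared batch, so the numbers were not taken to pair the arrays.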
